A study of Mus musculus with 28 samples.

Results

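Gabra2, Gabbr1, Gad1 and Gabarap were followed across single neurons of the mouse primary motor cortex (M1). The 4 genes were chosen by name, as the genes of GABA receptors, GABA synthesis and receptor traffic to be described, and all 4 were among the 1024 genes of the deposited table. The table gave 1 value per gene for each of 28 neurons from CD1 mice. The embryos had been electroporated in utero on embryonic day 15 with 3 plasmids, and every group carried all of them. pCAGIG gives GFP from a ubiquitous promoter. pHSE-FLPo gives the FLPo recombinase from a heat shock response element, and pFRT-RFP gives RFP once the recombinase has acted. RFP thus marks a neuron in which that element was active at some earlier time, whereas its absence can also mean that a plasmid was missing from the cell.

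The groups were 7 RFP-negative and 15 RFP-positive neurons exposed to ethanol (EtOH) before birth and 6 RFP-negative neurons exposed to phosphate-buffered saline (PBS). Dams were injected on embryonic days 16 and 17, and the neurons were collected at postnatal day 30. The 25% ethanol solution was dosed at 1.0 g/kg or at 4.0 g/kg, and the labels do not tie a neuron to either dose. No RFP-positive PBS group was included, so reporter state can be compared within the ethanol-exposed neurons alone. No label gives the animal from which a neuron came. Each group was therefore treated as 1 sample, SDs are across its neurons, and no p-values are given.

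GABA is the main inhibitory transmitter of the cortex. It opens GABA-A receptors, which are chloride channels built from several subunits, and it activates GABA-B receptors, which act through G proteins on potassium and calcium channels. Interneurons make GABA with glutamate decarboxylases, while pyramidal neurons carry both kinds of receptor and usually make little GABA themselves. Gabarap, a small protein of the ATG8 family, binds a GABA-A receptor subunit and microtubules and takes part in receptor traffic and in autophagy.

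The values of the table were on a log scale and were taken as log2. They fell into separate modes. Of all 28672 values, 3277 lay in the bin from 1.75 to 2.0 and 222 in the trough bin from 4.0 to 4.25, with a further mode near 6 and another near 9.5. A value above 4.0 is called above the trough below, and a second trough lay at 8.0. A value below the trough is not read as absence of the transcript. Read totals were not used here, so depth is unknown, and low expression and failed capture cannot be told apart in a single cell. The nearest measure of capture was the number of genes above the trough, with medians of 327 (RFP-negative EtOH), 357 (RFP-positive EtOH) and 323.5 (PBS).

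Because the reporter is switched by a heat shock response element, the start regions of the genes were searched for the letters that heat shock factors bind and for general promoter letters. The bases before the RefSeq start site of 3 genes are shown 5′ to 3′ on the gene's own strand (GRCm38.p6), up to the nearest annotated exon. Capitals mark GAANNTTC, a pair of inverted heat shock units, in Gabra2 and TATAAA, the letters of a TATA box, read on the other strand in Gad1. The Gad1 match is at -141 from the RefSeq start site, 70562129, which lies inside the span of Gad1 given below. Gabbr1 holds neither and is shown for comparison.
Gabra2, chr5:71095850-71096099, minus strand: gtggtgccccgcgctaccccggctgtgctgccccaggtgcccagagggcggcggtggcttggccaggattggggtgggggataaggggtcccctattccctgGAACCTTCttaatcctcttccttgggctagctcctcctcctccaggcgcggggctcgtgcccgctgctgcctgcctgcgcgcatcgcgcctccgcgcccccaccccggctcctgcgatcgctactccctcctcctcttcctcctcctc
Gabbr1, chr17:37045716-37045965, plus strand: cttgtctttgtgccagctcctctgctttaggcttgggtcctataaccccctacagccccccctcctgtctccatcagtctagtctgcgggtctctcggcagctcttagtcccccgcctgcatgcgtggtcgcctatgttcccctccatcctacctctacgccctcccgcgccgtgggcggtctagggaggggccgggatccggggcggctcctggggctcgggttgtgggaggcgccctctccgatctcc
Gad1, chr2:70561879-70562041, plus strand: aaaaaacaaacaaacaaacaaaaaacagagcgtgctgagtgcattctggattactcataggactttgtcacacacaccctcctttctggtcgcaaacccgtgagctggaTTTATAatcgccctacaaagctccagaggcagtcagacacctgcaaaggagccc
In the whole 300-base windows around the start sites, GAANNTTC was present in Gabra2 and in none of the other 3 genes, and 7.86% of 32851 mouse promoters of that length hold it. TTCNNGAA, the same pair in the other order, was in none of the 4 windows and in 8.52% of promoters. TATAAA was in the Gad1 window and in 13.6% of promoters. GGGCGG, a letter pattern of Sp1 sites, was in the Gabra2, Gabbr1 and Gad1 windows and in 35.7% of promoters. TGACGTCA, the cyclic AMP response element, was in none of the 4 windows and in 1.79% of promoters. All motifs were searched on both strands, and a match is a description of letters, not of binding.

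Gabra2 encodes the alpha-2 subunit of the GABA-A receptor (ENSMUSG00000000560, chromosome 5, 70957597 to 71095849, minus strand, GRCm38). It was above the trough in 5 of 28 neurons, spread over all 3 groups. Its values ran from 1.60 through a median of 2.02 to 8.28 in RFP-negative EtOH neurons. The corresponding values were 1.15, 1.69 and 10.1 in RFP-positive EtOH neurons and 1.16, 2.02 and 9.37 in PBS neurons. The 3 groups overlapped over nearly their whole ranges, each with 1 neuron far above the rest. The RFP-positive EtOH group also held Gabra2 values of 4.51 and 4.70, close to the trough. The mean Gabra2 level was 3.08 ± 2.38 (SD, n = 7), 2.69 ± 2.32 (SD, n = 15) and 3.14 ± 3.08 (SD, n = 6) in RFP-negative EtOH, RFP-positive EtOH and PBS neurons. The order PBS, RFP-negative EtOH, RFP-positive EtOH thus separated neighbours by far less than their SDs.

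Gabbr1 encodes the GABA-B receptor subunit that binds GABA (ENSMUSG00000024462, chromosome 17, 37045966 to 37075067, plus strand). It was above the trough in 11 of 28 neurons, of which 8 were RFP-positive EtOH neurons. In RFP-positive EtOH neurons the lowest, median and highest Gabbr1 values were 1.43, 4.93 and 9.69. In RFP-negative EtOH neurons they were 1.38, 1.97 and 7.91, and in RFP-negative PBS neurons 1.56, 1.81 and 7.20. The 2 RFP-negative EtOH neurons above the trough held 5.46 and 7.91. Values above the second trough of 8.0 occurred in 5 of 15 RFP-positive EtOH neurons. The RFP-negative EtOH and PBS groups had 0 of 7 and 0 of 6, with exact Clopper-Pearson 95% upper limits of 41.0% and 45.9%. This excess of 33.3 percentage points was exceeded by 16 genes over RFP-negative EtOH neurons and by 13 over PBS neurons. The median excess of all genes was 6.67 and 3.33 points. Below 8.0 the groups overlapped. The mean Gabbr1 level was 4.93 ± 3.02 (SD, n = 15) in RFP-positive EtOH, 3.20 ± 2.50 (SD, n = 7) in RFP-negative EtOH and 2.73 ± 2.21 (SD, n = 6) in PBS neurons.

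Gad1 encodes GAD67, the glutamate decarboxylase that makes most of the GABA in interneurons (ENSMUSG00000070880, chromosome 2, 70553072 to 70602014, plus strand). It was above the trough in 6 of 28 neurons, with 2 of 7 in RFP-negative EtOH, 3 of 15 in RFP-positive EtOH and 1 of 6 in PBS neurons. The lowest, median and highest Gad1 values were 1.25, 2.09 and 8.0 in RFP-negative EtOH neurons. They were 1.54, 2.25 and 9.83 in RFP-positive EtOH neurons and 1.35, 2.43 and 13.2 in PBS neurons. PBS neuron 4, at 13.2, held the highest of all 28672 values. In every group most neurons thus had low Gad1, below the trough, and 1 to 3 had high Gad1, above it. The 6 Gad1 values above the trough included 4.01 and 8.0 in RFP-negative EtOH neurons 4 and 7. The others were 9.83, 6.87 and 9.38 in RFP-positive EtOH neurons 2, 8 and 12, and 13.2 in PBS neuron 4. The value of 4.01 lay within the trough bin itself, and that neuron is counted as high Gad1 below. The mean Gad1 level was 2.98 ± 2.39 (SD, n = 7) in RFP-negative EtOH, 3.40 ± 2.83 (SD, n = 15) in RFP-positive EtOH and 4.04 ± 4.54 (SD, n = 6) in PBS neurons.

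Markers of cell class were set beside Gad1, because Gad1 is itself a marker of interneurons. The table held 3 of 19 pyramidal neuron markers of the list used (Nrgn, Mef2c and Camk2b), and no interneuron marker other than Gad1 is used here. Abat, which encodes the transaminase that breaks GABA down, was above the trough in 3 of the 6 neurons with Gad1 above the trough and in 3 of the other 22. Nrgn, which encodes the calmodulin-binding neurogranin of excitatory neurons, was above the trough in 22 of the 22 neurons with low Gad1 and in 5 of the 6 with high Gad1. The 1 neuron with Nrgn below the trough was PBS neuron 4, the one with the highest Gad1. Mef2c, a transcription factor of many cortical neurons, was above the trough in 21 of 22 and in 4 of 6 neurons. Camk2b, a subunit of a calcium-dependent kinase, went the other way, with 14 of 22 and 5 of 6 neurons above the trough. The markers thus gave no single direction, and no neuron was assigned a class.

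Gabarap (ENSMUSG00000018567, chromosome 11, 69991143 to 69994951, plus strand) was above the trough in 11 of 28 neurons, of which 9 were RFP-positive EtOH neurons. The lowest, median and highest Gabarap values were 1.18, 6.28 and 10.8 in RFP-positive EtOH neurons. They were 2.48, 2.66 and 6.26 in RFP-negative EtOH neurons and 2.05, 3.19 and 5.79 in PBS neurons. In both RFP-negative groups all but 1 neuron lay below the trough, while the RFP-positive neurons spread from below the lowest RFP-negative value to well above the highest. The share of neurons above the trough was 60.0% in RFP-positive EtOH (exact Clopper-Pearson 95% interval 32.3 to 83.7%), 14.3% in RFP-negative EtOH (0.361 to 57.9%) and 16.7% in PBS (0.421 to 64.1%) neurons. These intervals cover counting error over neurons and not differences between animals. Gabarap values above 8.0 were found in 7 of 15 RFP-positive EtOH neurons (46.7%, interval 21.3 to 73.4%). The RFP-negative groups had 0 of 7 and 0 of 6. Taking 3 neurons as the limit of a count of 0, in place of the exact interval, this allows shares of up to 42.9% and 50%. In the share of neurons above 8.0, 4 genes had a larger excess than Gabarap in RFP-positive over RFP-negative EtOH neurons and 3 genes in RFP-positive EtOH over PBS neurons. The mean Gabarap level was 6.26 ± 3.74 (SD, n = 15) in RFP-positive EtOH, 3.19 ± 1.36 (SD, n = 7) in RFP-negative EtOH and 3.37 ± 1.33 (SD, n = 6) in PBS neurons. The 2 RFP-negative groups were closer to each other than their SDs.

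**Figure D1:**
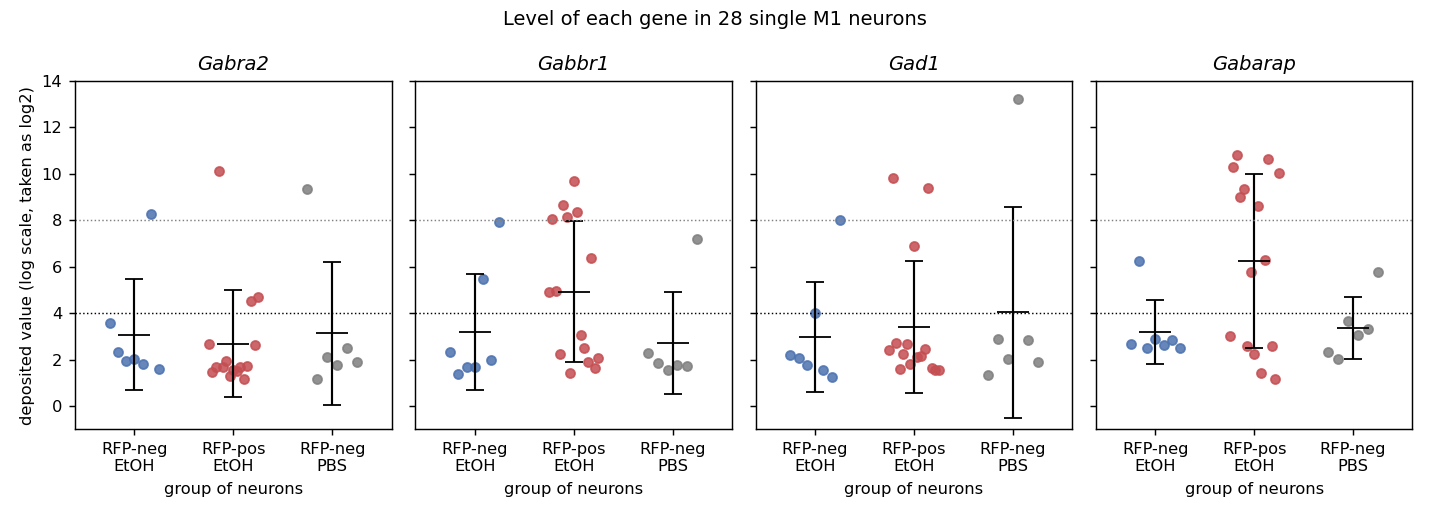
Deposited log2 value (vertical axis) of the 4 genes in each of the 28 neurons, by group; each point is 1 neuron, the bar is the group mean and the error bar the SD across neurons, and the lines mark the troughs at 4.0 and 8.0. Gabarap lies above 8.0 in 7 RFP-positive EtOH neurons and in 0 RFP-negative neurons, while Gabra2 and Gad1 have few high neurons in every group.

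The comparison of reporter states within ethanol-exposed neurons asks which genes differ between neurons with and without the mark of an earlier heat shock response. Between RFP-positive and RFP-negative EtOH neurons, 2 of the 4 genes differed by at least 1 log2 unit, both higher in RFP-positive neurons. Over all 1024 genes, 42.0% differed by at least 1, with 26.3% higher and 15.7% lower, so a count of 2 in 4 is near that background. The Gabarap difference of means was 3.07, the 11th highest of 1024 genes, and the Gabbr1 difference was 1.73, at rank 96. The median difference of all genes was 0.31. Gad1 differed by 0.42 and Gabra2 by -0.38, both far less than the SDs within groups. Single neurons decided these values: Gad1 differed by -0.04 without RFP-positive EtOH neuron 2 and by 1.26 without RFP-negative EtOH neuron 7, and Gabra2 by 0.48 without RFP-negative EtOH neuron 6. In share of neurons above the trough, RFP-positive EtOH neurons exceeded RFP-negative ones by 45.7 percentage points for Gabarap, with 21 genes showing a larger excess, and by 24.8 points for Gabbr1, with 167 genes above it. The median excess of all genes was 5.71 points.

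Values that could move with reporter state were measured beside these differences. RFP-positive EtOH neurons had more genes above the trough (35.1% of all values against 30.8% in RFP-negative EtOH neurons). Across the 28 neurons, the number of genes above the trough had a Spearman rho of 0.09 with Gabarap and 0.14 with Gabbr1. Without the 6 neurons with high Gad1, the Gabarap difference was 2.51 and the Gabbr1 difference 1.97. The 2 of 8 astrocyte markers in the table (Slc1a2 and Aldoc) had a summed level with a median of 6.18 (range 2.72 to 10.2) in RFP-positive EtOH, 3.42 (2.56 to 9.03) in RFP-negative EtOH and 8.39 (3.07 to 9.79) in PBS neurons. Their part in the results was not tested. Some values recur exactly between neurons, which sets 24 neurons apart from the other 4. Within the larger set the Gabarap difference was 2.92 and the Gabbr1 difference 1.35.

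Exposure was compared in RFP-negative neurons, which carry no mark of a heat shock response. Between the EtOH and the PBS neurons, 1 of the 4 genes differed by at least 1, against 50.6% of all genes (23.8% higher and 26.8% lower). That gene was Gad1, whose difference of -1.06 rested on PBS neuron 4 and was 0.78 without it. Gabarap differed by -0.18, Gabra2 by -0.06 and Gabbr1 by 0.47, and the median of all genes was -0.06. Without PBS neuron 1 the Gabra2 difference was 1.18, and that of Gabbr1 was 1.37 without PBS neuron 6 and -0.31 without RFP-negative EtOH neuron 7. Between RFP-positive EtOH and PBS neurons, 2 of the 4 genes differed by at least 1, against 44.1% of all genes (24.9% higher and 19.2% lower). Gabarap was higher by 2.89, the 9th highest difference, and Gabbr1 by 2.21, at rank 34, while Gad1 and Gabra2 differed by -0.64 and -0.45. The Gad1 difference was 1.2 without PBS neuron 4, and that of Gabra2 was 0.80 without PBS neuron 1. The median of all genes was 0.26. This comparison changes reporter state and exposure together, and it shares its RFP-positive neurons with the comparison of reporter states and its PBS neurons with that of exposure. Mbp, which encodes a myelin protein of oligodendrocytes and is the one oligodendrocyte marker used here, had a median of 7.99 (range 2.2 to 10.6) in PBS, 2.66 (range 2.09 to 8.26) in RFP-negative EtOH and 3.01 (range 2.19 to 8.48) in RFP-positive EtOH neurons. It differed by -3.71 between exposures and by -3.36 between RFP-positive EtOH and PBS neurons. The 2 of 9 microglia markers (Csf1r and Cst3) had a summed level with medians of 4.25 (3.04 to 8.35), 6.61 (3.17 to 11.4) and 5.91 (2.77 to 10.5) in the same order of groups. The part of these markers in the comparisons with PBS neurons was not tested.

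**Figure D2:**
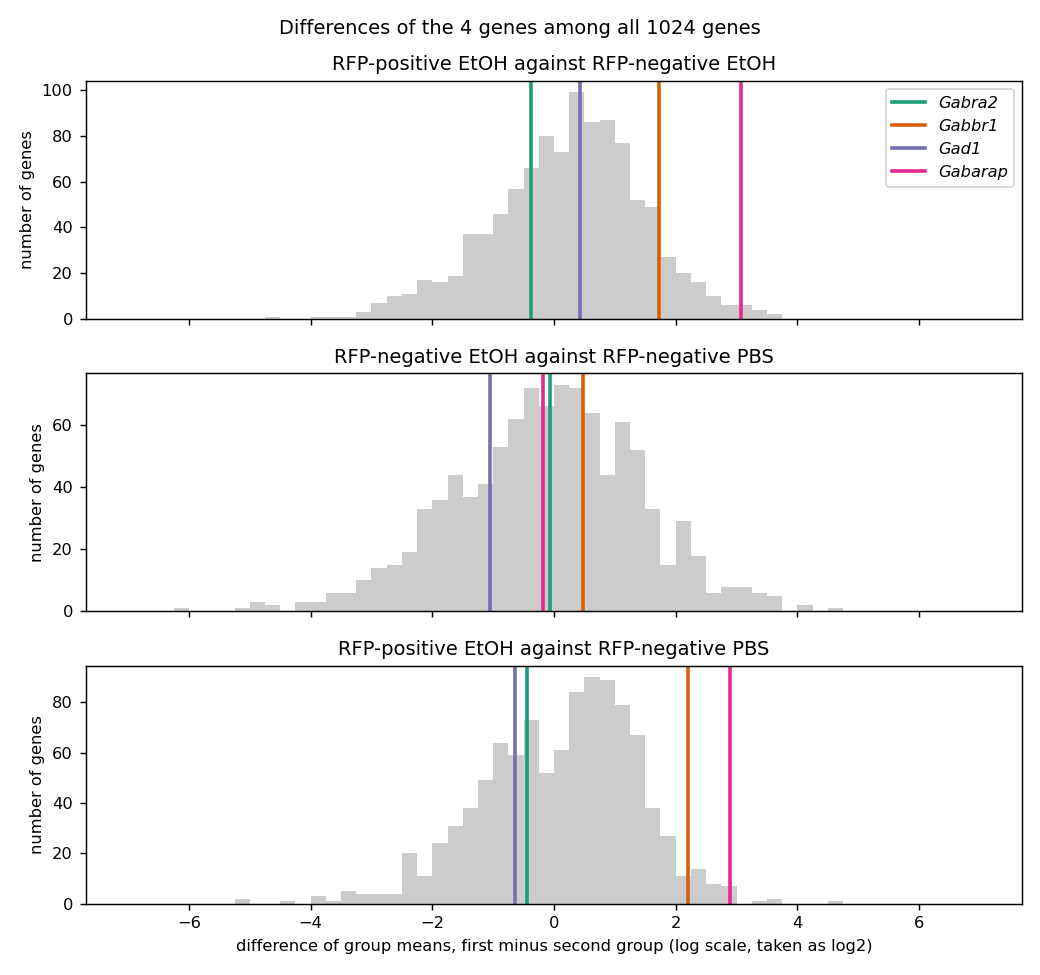
Difference of group means in log2 units (horizontal axis) in each of the 3 comparisons; the grey bars count all 1024 genes (vertical axis) and the coloured lines mark the 4 genes. Gabarap (3.07 and 2.89) and Gabbr1 (1.73 and 2.21) lie to the right in both comparisons with RFP-positive EtOH neurons.

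Within single neurons, none of the 4 genes was above the trough in 7 neurons, 1 was in 10 neurons, 2 were in 10 neurons and 3 were in 1 neuron, RFP-positive EtOH neuron 2. Of the 10 neurons with 2 genes above it, 8 were RFP-positive EtOH, 1 was RFP-negative EtOH and 1 was PBS. Of the values of the 4 genes, 38.3% were above the trough in RFP-positive EtOH, 21.4% in RFP-negative EtOH and 16.7% in PBS neurons. Over all genes the shares were 35.1%, 30.8% and 33.3%, so the RFP-positive share was near that background and the others lay below it. Gabbr1 and Gabarap were both above the trough in 5 neurons, Gabbr1 and Gad1 in 3, and Gad1 and Gabarap in 2. Gabra2 shared 2 neurons with Gabarap, 1 with Gabbr1 and 0 with Gad1. Across the 28 neurons Gabra2 and Gad1 had a Spearman rho of -0.57, a description with no test, since neurons may share animals that the labels do not name. It rested in part on the low values: with all values below the trough set to the trough, rho was -0.24.

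**Figure D3:**
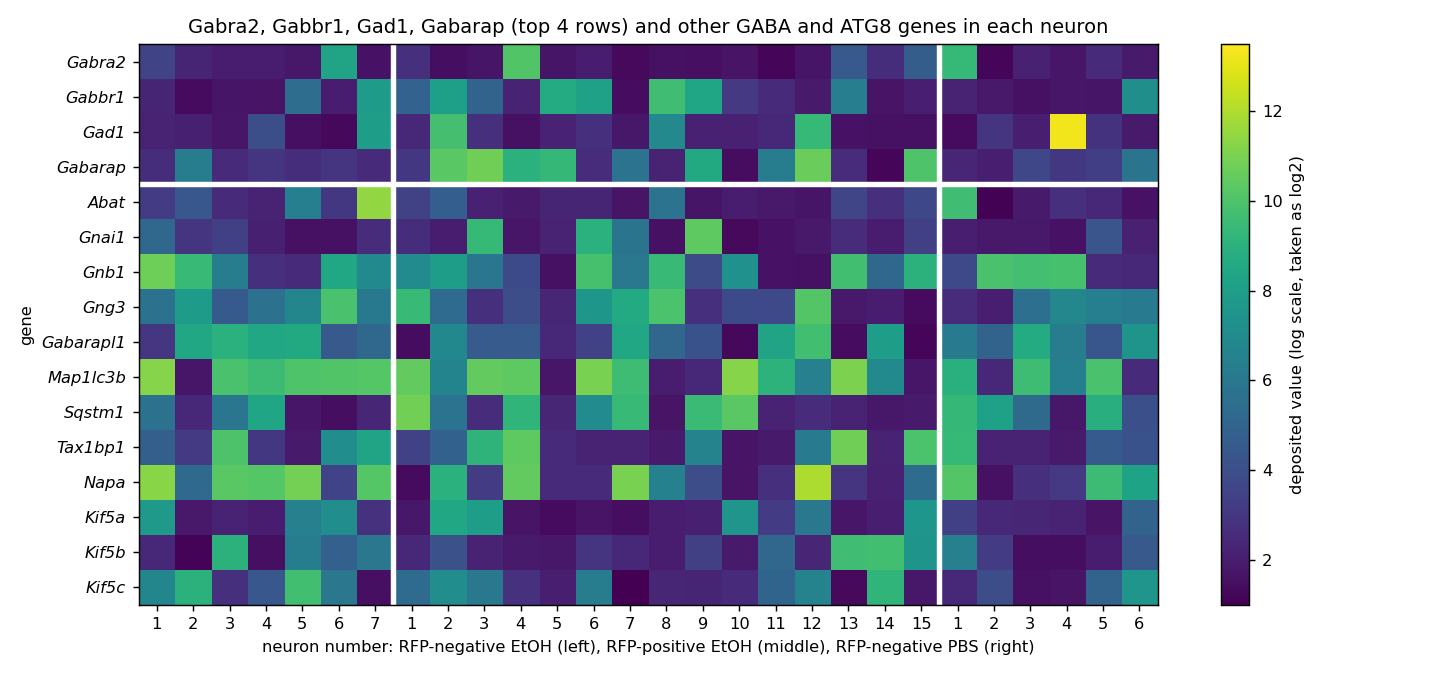
Deposited log2 values (colour) of the 4 genes and of the 12 other GABA and ATG8 genes in rows, with 1 column per neuron and white lines between the groups. No neuron has both Gabra2 and Gad1 above 4.0, and Gad1 in PBS neuron 4 is the brightest cell at 13.2.

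The genes with the most similar pattern were taken as those with the highest Spearman rho over the 28 neurons. The 5 nearest to Gabra2 were Gltp (0.90), Gstz1 (0.87), Pdhx (0.82), Clpx (0.73) and Slc35b1 (0.72). The best rho of a gene with any other gene had a median of 0.66 over all genes, with 0.54 to 0.84 covering the 5th to 95th percentile, so that of Gabra2 was among the highest. It rested in part on values below the trough. Gabra2 and Gltp were both below it in 22 neurons, where their values had a Pearson r of 0.90 and Gltp exceeded Gabra2 by 0.51 ± 0.24 (SD). Gabra2 and Clpx were both below it in 20 neurons, with r of 0.97 and a difference of -0.00 ± 0.12 (SD). Low values of Gabra2 thus moved with those of Gltp and Clpx, which were picked by rho over the same values. Between Gabbr1 and its 5 nearest genes, named below, r was 0.06 to 0.44 where both were below the trough. For Gad1 and its nearest genes r was 0.22 to 0.58. For Gabarap r was 0.27 with Tmx2, 0.06 with Brk1 and 0.78 with Hp1bp3, and it was not computed for Ndufa1 and Eif1. With values below the trough set to it, the rho of Gabra2 was 0.60 with Gltp, 0.56 with Slc35b1 and 0.44 with Gstz1. It was 0.43 with Clpx and -0.19 with Pdhx. The nearest to Gabbr1 were Lrrc58 (0.57), Luc7l2 (0.52), Trim44 (0.52), Tubb3 (0.50) and Fam49a (0.50). Those nearest to Gad1 were Nme7 (0.70), Tlcd1 (0.59), Prdx6 (0.59), Brk1 (0.59) and Mmgt1 (0.57). For Gabarap they were Tmx2 (0.53), Ndufa1 (0.52), Brk1 (0.49), Hp1bp3 (0.49) and Eif1 (0.48). The highest rho of Gabarap with a named gene, 0.53, lay just below the 5th percentile of 0.54. That percentile also counts predicted genes and pseudogenes, which the named genes leave out, so the place of Gabarap is not settled. Of all gene pairs, 1% had a rho above 0.54. With low values set to the trough, Gabbr1 had rho between 0.33 (Trim44) and 0.48 (Fam49a) with its 5 genes, and Gad1 between 0.22 (Brk1) and 0.53 (Tlcd1). Gabarap then had 0.05 with Brk1, 0.37 with Ndufa1 and 0.48 to 0.51 with Eif1, Hp1bp3 and Tmx2. The nearest gene on that scale was Phospho2 for Gabra2 (0.75), Supt6 for Gabbr1 (0.60), Lamp1 for Gad1 (0.59) and Rps4x for Gabarap (0.57), so the order of likeness depended on how low values were treated.

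**Figure D4:**
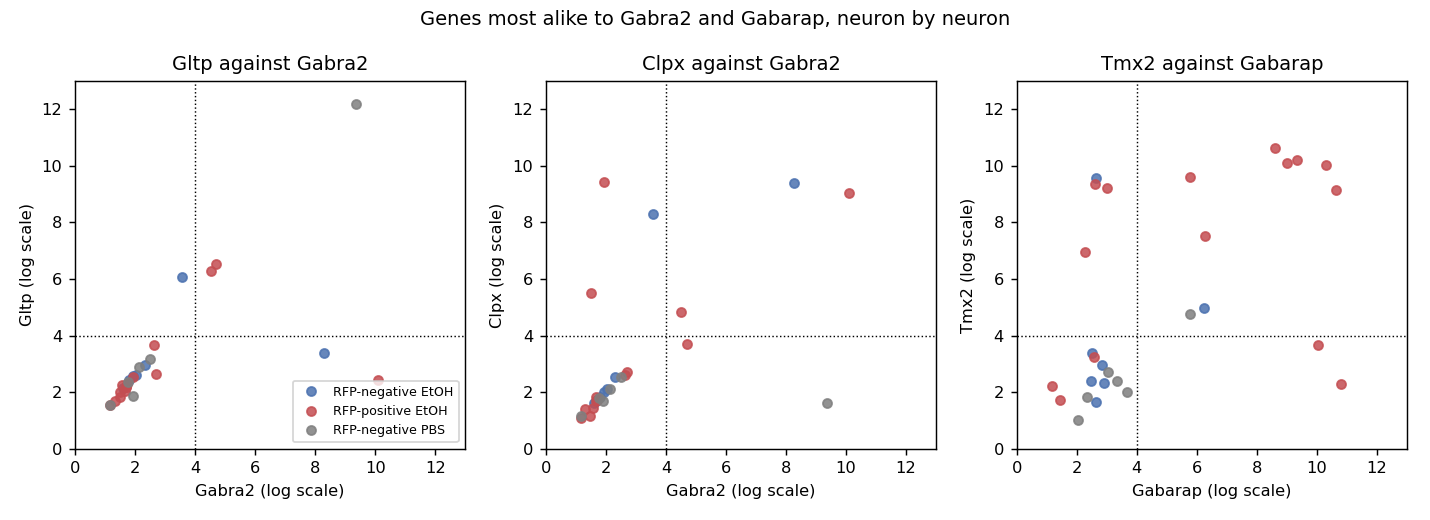
Deposited log2 values of Gabra2 and of Gabarap (horizontal axes) against the genes most similar to each (vertical axes), with 1 point per neuron coloured by group and lines at the trough of 4.0. The points of Gabra2 and Gltp form a line at low values, with 22 neurons below the trough for both, while those of Gabarap are scattered.

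The lists of GABA and ATG8 genes as used here held 93 other genes, of which the table gave 12. Of these 12, 2 were higher and 6 lower by at least 1 in RFP-positive than in RFP-negative EtOH neurons. Over all genes, 26.3% were higher and 15.7% lower. The median difference of the 12 was -1.15 (-0.11 with arithmetic means) against 0.31 over all genes. In RFP-negative EtOH against PBS neurons 8 were higher and 1 lower by at least 1, with a median of 1.44 against -0.06. The shares over all genes were 23.8% higher and 26.8% lower. In RFP-positive EtOH against PBS neurons 1 was higher and 1 lower, with a median of 0.28 (-0.39 with group medians) against 0.26. Here 24.9% of all genes were higher and 19.2% lower. The first and the second of these comparisons share the RFP-negative EtOH neurons, whose level enters them with opposite signs.

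Among the relatives and partners of Gabarap, most had lower means in RFP-positive than in RFP-negative EtOH neurons, as did 410 of all 1024 genes. Gabarapl1, its close relative, was above the trough in 9 of 15 RFP-positive EtOH, 6 of 7 RFP-negative EtOH and 6 of 6 PBS neurons. Its means were 4.73 ± 2.93 (SD, n = 15), 6.73 ± 2.44 (SD, n = 7) and 6.32 ± 1.59 (SD, n = 6), a difference between reporter states of -2.0 and opposite in sign to that of Gabarap. Map1lc3b, which encodes the ATG8 protein LC3B, differed by -1.57, and Napa, which encodes the alpha-SNAP of vesicle fusion, by -3.66. Sqstm1, which encodes the autophagy receptor p62, differed by 1.31. Kif5c, a kinesin heavy chain, differed by -1.60, and the other kinesins Kif5a and Kif5b and the autophagy receptor Tax1bp1 by less than 1. The signs against PBS neurons were mixed. There RFP-positive EtOH neurons differed by 0.79 for Map1lc3b, 0.94 for Kif5a, 0.78 for Kif5b, 0.45 for Kif5c and 0.99 for Tax1bp1. They differed by -1.58 for Gabarapl1, -0.73 for Napa and -0.96 for Sqstm1.

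Of the genes beside the receptors, Gnai1, a G protein alpha subunit, had a mean 1.07 higher in RFP-positive than in RFP-negative EtOH neurons. Its medians ran the other way, at 2.21 and 2.58, and RFP-positive EtOH neuron 9 held 10.4. Gng3, a gamma subunit, differed by -1.59, and Gnb1, a beta subunit, by less than 1. In GABA breakdown, Abat differed by -1.97, with means of 2.77 ± 1.24 (SD, n = 15) and 4.74 ± 3.29 (SD, n = 7). RFP-negative EtOH neuron 7 held 11.5, and the medians were 2.28 and 3.19. The signs differed among the G protein subunits.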

How the data were processed

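Contents of single M1 neurons were amplified with a SMARTer low-input kit, made into libraries with Nextera XT and sequenced in single reads of 51 cycles, per the labels' protocols. Reads were demultiplexed with CASAVA 1.8 and quality-filtered with the FASTX-Toolkit, also per those protocols. Bowtie2, Cufflinks 2.2.1 and GRCm38 are named in the submitters' processing notes. The deposited log values were treated as log2. For their base and their normalization, the sources used here give nothing. The 1024 genes are headed as all genes above a cut-off, and the sources used here do not give that cut-off. All ranks and shares over all genes refer to these 1024. These kits do not keep strand. No exon of the 4 genes overlaps that of another gene in GENCODE M21.

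The table holds 28 columns, matched to neurons by name, and 0 columns of other samples. The series' design text counts 5 PBS neurons, whereas 6 exist and were used; a time course label of the PBS neurons mentions EtOH, and titles and exposure labels were followed. Neurons were grouped by reporter state and exposure. For each gene the difference of group means was computed and called at 1 or more, beside the same over all genes. The trough was read from a histogram with bins of 0.25. The members and lists were chosen with earlier results of these data known. The named genes were the 4 members, the list genes in the table and the 5 genes with the highest Spearman rho with each member, leaving out Xist, Y-linked and predicted genes, pseudogenes and rows with no symbol. Some further genes of the lists are not reported here and are left out of the list counts, a departure from that rule. Promoter windows are from RefSeq (GRCm38.p6), where 4 of 4 genes matched. Most of the Gabarap window lies in an annotated exon, so its letters are not shown. Scripts used python 3.11.15, numpy 2.4.6, pandas 2.3.3 and scipy 1.17.1 and were tested on simulated data. Alternatives were group medians, arithmetic means, other scalings, the larger set of neurons, leaving out neurons, and limits on low values.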

Additional observations from a re-analysis of the deposited data

Results flagged for a closer look

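In 6 of the 8 groups of up to 10 neurons examined (4 genes in 2 RFP-negative groups), 1 neuron stood apart from the others of its group. The rule used marks about 1 group in 20 by chance where values are normally distributed. That rate does not hold for these values. The log values are not spread evenly but in modes, so a lone neuron of an upper mode is marked. Gabra2 was 8.28 in RFP-negative EtOH neuron 6, with 3.57 in the nearest, and 9.37 in PBS neuron 1, with 2.51 in the nearest. Gabbr1 was 7.20 in PBS neuron 6, with 2.27 in the nearest. Gad1 was 8.0 in RFP-negative EtOH neuron 7, with 4.01 in the nearest, and 13.2 in PBS neuron 4, with 2.90 in the nearest. Gabarap was 6.26 in RFP-negative EtOH neuron 2, with 2.90 in the nearest.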

How the results depend on the processing

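The Gabarap difference stayed positive under every alternative run, at 2.51 to 4.92 between reporter states and 2.45 to 4.96 against PBS neurons, and that of Gabbr1 at 1.05 to 2.95 and 1.28 to 3.12. Between RFP-negative EtOH and PBS neurons, the Gad1 difference turned from -1.06 to 0.78 without PBS neuron 4. It ranged from -1.90 to 0.78 leaving out 1 neuron at a time. Gad1 was the only 1 of the 4 genes past 1 there. The number past 1 went from 1 to 0 with group medians and with an equal median of values above the trough. Low values set to the trough also gave 0. The number went to 2 with arithmetic means and in the larger set of neurons, and to between 0 and 2 leaving out 1 neuron at a time. It was also 0 without the neurons with high Gad1 and with only genes with a mean of at least 4.0. Neither of these settings can test the Gad1 difference. The former leaves out neurons by their Gad1 value, and the latter leaves out Gad1 itself and keeps only Gabbr1 and Gabarap of the 4. The rho of Gabra2 with Gad1 was -0.32 with equal upper quartiles and -0.24 with low values set to the trough, the latter chosen after seeing the data. Equal upper quartiles shifted the median difference of all genes from 0.31 to -0.20 between reporter states and from -0.06 to 0.49 between exposures, and Gad1 then differed by -0.09 between reporter states. With arithmetic means the median difference of all genes between reporter states was 1.06, with Gad1 at 1.49 and Gabra2 at 0.71, and the number of the 4 genes past 1 was 3. The median of the 12 other genes was -0.11 between reporter states with arithmetic means, and between RFP-positive EtOH and PBS neurons it was -0.39 with group medians, -0.11 in the larger set and -0.01 without the neurons with high Gad1. The cause of these changes was not tested. No paired analysis was possible because replicate numbers only name neurons and no test was made. With 6 to 15 neurons per group from animals not named, and reads per neuron unknown, differences of the size of Gabra2 and Gad1 could not be resolved.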
